A study of Mus musculus with 12 samples.

Results

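Sialyltransferases add sialic acid to the ends of the sugar chains on glycoproteins and glycolipids, and a few further enzymes build the fucosylated and branched chains that selectins bind. This account covers 9 such glycosyltransferase genes among the 24439 gene names for which RNA-Seq values were given. They were *St8sia6*, *St8sia1*, *St8sia4*, *St3gal1*, *St3gal4*, *St3gal6*, *St6gal1*, *Gcnt1* and *Fut7*, picked by name, and all 9 passed the filter on low values and were among the 12442 genes tested. Their choice was made with results of these same libraries in view. Their values and calls are therefore a description, and *St8sia6*, *St8sia1*, *St3gal6* and *St3gal1* also stand on the list of differentially expressed genes that the authors chose on these samples.

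The study asked what IL-2 contributes to gene priming and gene induction in recently activated CD4 T cells. RNA-Seq was done on 12 libraries in 4 groups of 3. All cells came from the spleens of C42 mice, a line given as C57BL/6 by the labels and as back-crossed to C57BL/6J by the methods, that carries a 130-kb fragment of human DNA with the *IL3* and *CSF2* genes, so that every group, controls included, had this transgene. CD4 T cells were activated with 2 µg/ml of the lectin concanavalin A for 40 h and the resulting T-blast cells (TB) were then grown in 50 U/ml IL-2, for 30 h by the methods and about 2 days by the labels. In TB IL-2 the cells stayed in IL-2, and in TB IL-2nil they spent a further 16 h without it. In TB+ IL-2 and TB+ IL-2nil the same 2 kinds of cell received phorbol 12-myristate 13-acetate (20 ng/ml) together with the calcium ionophore A23187 (2 µM) for 2 h (PMA/I), which stand in for T cell receptor signaling. Nothing in the labels says which cultures came from separate mice, so the *P*-values below measure only the spread between these samples.

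As background, sialic acids can be joined to galactose in alpha-2,3 or alpha-2,6 linkage, to *N*-acetylgalactosamine in alpha-2,6 linkage, or to another sialic acid in alpha-2,8 linkage, and a separate family of enzymes makes each bond. The sialyl Lewis x group that E- and P-selectin bind on activated T cells needs an alpha-2,3 sialic acid, an added fucose from FUT7 and usually a branched core 2 *O*-glycan started by GCNT1. Sialylation also shields galactose from galectins, changes as T cells become activated, and supplies the ligands of the Siglec receptors.

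Values are given as TPM, the share of a gene among all transcripts corrected for its length and expressed per 1e+06, with each library then scaled to a common upper quartile. Differences are in log2(TPM + 1), with their standard error (SE), from 1 limma fit to all 12 libraries, and adjusted *P*-values are those of limma with Benjamini-Hochberg adjustment over all genes tested. This fit did not pair libraries by replicate number, and values from a fit with a replicate block are named as such. A gene was called, and is said to have risen or fallen, where it changed more than 3-fold on this scale with an adjusted *P* under 0.05. The scale understates changes of genes with few TPM. In bulk RNA, fewer cells that express a gene and less of its RNA per cell cannot be told apart.

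For 2 libraries the sample labels go against the data. The library labelled TB IL-2nil replicate 3 held 1368 FPKM of *Il2*, a gene that PMA/I induces, where the 5 other libraries labelled unstimulated held 0 to 1.18. The one labelled TB+ IL-2 replicate 3 held 0.290 FPKM, where the 5 other libraries labelled stimulated held 1095 to 2374. The authors' list of differentially expressed genes was compared with the libraries after their quantile normalization, a scale other than the upper-quartile scale used for the values here. On that scale, each of the 2 columns with these names holds the values of the library with the other label. That library met the values of 1381 genes within 0.1% in 100% of cases, and the library of the same label in 0.0724%. Both libraries were placed accordingly, and their names below follow the placement. Taken by their labels instead, 0 of the 9 genes were called in either comparison of IL-2 withdrawal, 1 (*St3gal1*) for PMA/I with IL-2 and 0 for PMA/I after IL-2 withdrawal. With both left out, the counts were the same as with the placement, namely 3, 1, 3 and 4.

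The relative depth of the libraries, read from the steps between low FPKM values, ran from 0.409 in TB IL-2nil replicate 2 to 1.25 in TB+ IL-2nil replicate 1, and short non-coding RNAs took 16.6 to 53.2% of the TPM. The read counts behind a value are unknown, so no counting error is given. Of 9 CD4 T cell markers all were tested. At rest their summed level was 2018 to 2082 TPM in TB IL-2 and 3143 to 3420 in TB IL-2nil. After PMA/I it was 2316 to 2650 TPM in TB+ IL-2 and 3133 to 3861 in TB+ IL-2nil. All 9 were higher after IL-2 withdrawal at rest, 7 with a limma adjusted *P* under 0.05, and 0 were called. The B cell markers *Cd79a*, *Cd79b* and *Ms4a1* summed to 5.05 to 9.74 TPM in TB IL-2, 20.4 to 26.6 in TB IL-2nil, 2.09 to 2.81 in TB+ IL-2 and 4.74 to 12.1 in TB+ IL-2nil. All 3 were higher after IL-2 withdrawal at rest and lower after PMA/I following withdrawal, with adjusted *P*-values under 0.05, and *Cd79b* was called both times. The CD8 markers *Cd8a* and *Cd8b1* together were highest in replicate 1 of each group, at 22.0 to 31.9 TPM, against 6.91 to 17.7 in the others. Of the 3 natural killer cell markers *Ncr1* was listed at 0 in every library and the list never exceeded 0.303 TPM, and 5 myeloid markers summed to 1.74 to 4.88 TPM. The part of other cells in the results below was not tested.

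Upstream sequences are shown for 4 of the genes that were called with IL-2 withdrawal or PMA/I, to place the genes and the elements in them. They are the 250 bases before a transcription start in RefSeq (GRCm38.p6), written 5′ to 3′ on the strand of the gene, and 8 of the 9 genes had 14 such windows. *St3gal1* has no entry. Each was searched on both strands for a STAT element (TTCNNNGAA), an AP-1 element (TGANTCA), a RUNX element (TGTGGT) and a FOXO element (GTAAACA), and matches are in capitals. The windows shown lie at chr6:142964453-142964702 on the minus strand for *St8sia1*, chr1:95667595-95667844 on the minus strand for *St8sia4*, chr16:58524254-58524503 on the minus strand for *St3gal6* and chr2:25422992-25423241 on the plus strand for *Fut7*.
St8sia1: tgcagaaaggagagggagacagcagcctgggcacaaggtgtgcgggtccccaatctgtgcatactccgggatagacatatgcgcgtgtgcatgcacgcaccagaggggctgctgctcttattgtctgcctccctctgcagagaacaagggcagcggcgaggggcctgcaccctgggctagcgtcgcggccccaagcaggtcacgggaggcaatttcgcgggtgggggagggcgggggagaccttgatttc
St8sia4: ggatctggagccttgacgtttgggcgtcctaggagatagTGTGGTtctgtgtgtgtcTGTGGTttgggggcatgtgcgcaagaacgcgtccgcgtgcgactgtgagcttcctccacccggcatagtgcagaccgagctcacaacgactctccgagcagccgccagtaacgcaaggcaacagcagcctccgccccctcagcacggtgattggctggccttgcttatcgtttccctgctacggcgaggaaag
St3gal6: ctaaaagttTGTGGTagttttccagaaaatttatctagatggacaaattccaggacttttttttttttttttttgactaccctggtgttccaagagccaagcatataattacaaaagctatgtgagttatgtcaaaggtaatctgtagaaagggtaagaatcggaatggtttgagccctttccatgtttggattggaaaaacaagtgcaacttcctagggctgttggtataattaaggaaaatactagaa
Fut7: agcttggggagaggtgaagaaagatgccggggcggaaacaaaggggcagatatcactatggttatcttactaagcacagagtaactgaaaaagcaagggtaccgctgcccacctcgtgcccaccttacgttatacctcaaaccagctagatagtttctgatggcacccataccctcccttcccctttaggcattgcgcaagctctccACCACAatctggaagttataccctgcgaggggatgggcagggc
*St8sia1* had no match. *St8sia4* had 2 RUNX elements, which began 211 and 193 bases before the start. *St3gal6* had 1 RUNX element at 241 bases before the start, and *Fut7* had 1 at 43 bases before it. Over all 14 windows, 3 held the RUNX letters, 1 held the AP-1 letters (at 1 start of *St6gal1*, 15 bases upstream), and 0 held the STAT or the FOXO letters. Among 32851 promoters of the table, windows of the same length held the RUNX letters in 14.0% of cases, AP-1 in 6.75%, STAT in 7.02% and FOXO in 3.17%. A further 4 windows, among them that of *St8sia6*, overlap an exon of the GENCODE M1 annotation of mm9 and are not shown. The window of *St8sia6* is rich in CpG, with 30 CpG dinucleotides and 70.8% G and C, against 1 CpG and 34.8% in the *St3gal6* window shown. The other *St3gal6* window, which also overlaps an exon, has 16 CpG and 64.4% G and C.

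IL-2 withdrawal at rest raised 3 of the 9 genes, namely *St8sia6*, *St8sia1* and *St3gal6*, and lowered 0. Among all genes tested, 2.73% were called higher and 4.69% lower, 7.42% in all. The ranges of the 2 groups did not overlap for 7 of the 9 genes, where 53.2% of all genes did not overlap, and the adjusted *P* alone was under 0.05 for 7 of the 9 and 39.6% of all genes. In stimulated cells the same comparison gave 1 call, a rise of *St8sia6*, beside 0.41% of all genes higher and 3.21% lower, 3.62% in all. There the ranges did not overlap for 5 of the 9 and 37.2% of all genes, and 3 of the 9 and 21.3% of all genes had an adjusted *P* under 0.05. PMA/I with IL-2 raised *St3gal1* and lowered *St8sia1* and *Fut7*, where 3.94% of all genes were called higher and 3.1% lower, 7.04% in all. Ranges did not overlap for 4 of the 9 and 51.7% of all genes, and 4 of the 9 and 35.1% of all genes had an adjusted *P* under 0.05. PMA/I after IL-2 withdrawal raised 0 and lowered 4, which were *St8sia6*, *St8sia1*, *St8sia4* and *St3gal6*, where 7.78% were called higher and 10.7% lower, 18.5% in all. Here 7 of the 9 and 64.1% of all genes did not overlap, and 8 of the 9 and 61.2% had an adjusted *P* under 0.05.

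For 0 of the 9 genes did the PMA/I response differ between cells with and without IL-2 at an adjusted *P* under 0.05, as it did for 4.23% of all genes (2.66% higher and 1.57% lower). With the replicate number as a block, 1 of the 9 (*Fut7*) and 1478 of all genes (718 higher and 760 lower) passed that test, against 526 without. The comparisons share groups, since TB IL-2nil serves both as the treated group of the first and as the control of the fourth, so that a gene high in it appears in both.

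The median log2 difference of the 9 genes was 0.98 for withdrawal at rest, 0.53 for withdrawal in stimulated cells, -0.56 for PMA/I with IL-2 and -1.24 for PMA/I after withdrawal. Over all genes tested the medians were 0.13, 0.04, -0.22 and -0.38. The balance of calls for PMA/I depended on the scaling, and the direction of the called members did not. For PMA/I with IL-2, 490 genes were called higher and 386 lower, and 641 and 226 with scaling by a trimmed mean of M values, or 537 and 231 after quantile normalization. For PMA/I after withdrawal the counts were 968 and 1328, against 1224 and 838 with the trimmed mean, 1138 and 810 after quantile normalization and 638 and 2539 with no scaling, where the median of all genes moved from -0.38 to -0.78.

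**Figure D1:**
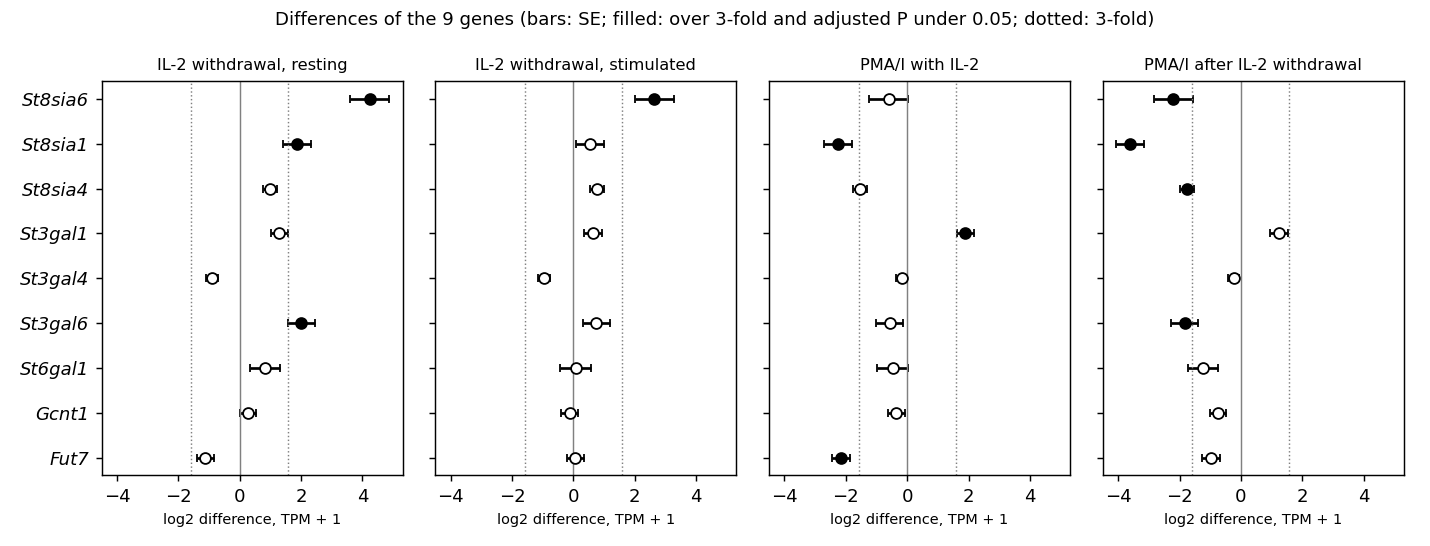
Log2 differences in TPM + 1 for the 9 genes in 4 comparisons, with SE bars, from the limma fit to 12 libraries. Filled points passed 3-fold (dotted lines) and an adjusted *P* of 0.05, and lie to the right for *St8sia6*, *St8sia1* and *St3gal6* after IL-2 withdrawal at rest and to the left for 4 genes with PMA/I after withdrawal.

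The 3 enzymes of the alpha-2,8 family that were expressed were all highest in resting cells without IL-2, the group in which the B cell markers given above were also highest. *St8sia6* adds sialic acid to existing sialic acids on *O*-glycans and makes disialic acid ligands for Siglecs. Its position is chr2:13572647-13715435, minus strand (mm9, GENCODE M1, as for all gene positions here). In the 3 libraries of TB IL-2 it read 4.86, 0.434 and 0.461 TPM (replicates 1, 2 and 3), and in TB IL-2nil 77.5, 48.3 and 19.97 TPM. Every library without IL-2 was thus above every library with it. Replicate 1 was the highest in both groups, as it was for the CD8 markers. The sum of those markers in replicate 1 was 31.9 TPM in TB IL-2 and 22.1 TPM in TB IL-2nil. The mean rose from 1.92 ± 2.54 to 48.6 ± 28.8 TPM (SD, n = 3), a log2 difference of 4.23 (SE 0.63, limma adjusted *P* = 6.25e-04), which is 18.8-fold on the TPM + 1 scale. By the labels the difference was 2.90 (SE 1.48, adjusted *P* = 0.491), and without both libraries 4.75 (SE 0.67, adjusted *P* = 0.00185).

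After PMA/I *St8sia6* read 0.837, 0.428 and 0.324 TPM in TB+ IL-2 and 16.4, 3.70 and 9.09 TPM in TB+ IL-2nil. The gene was again higher in each library without IL-2 than in any with it. The difference of 2.63 (SE 0.63, limma adjusted *P* = 0.0145) passed the thresholds. It lost the call without TB+ IL-2 replicate 3, without TB+ IL-2nil replicate 1 and with a pseudocount of 5, where the adjusted *P* reached at most 0.0612. By the labels it was 1.302 (SE 1.48, adjusted *P* = 0.694) and without both libraries 2.53 (SE 0.67, adjusted *P* = 0.0474). From rest to stimulation in the absence of IL-2 the gene fell by 2.21 on the log2 scale (SE 0.63, adjusted *P* = 0.0108), which was -0.88 by the labels (adjusted *P* = 0.691) and -2.73 without both libraries (adjusted *P* = 0.00770). With IL-2 both groups were low, and the difference of -0.61 (SE 0.63, adjusted *P* = 0.488) did not exceed the spread and turned to 0.064 without TB IL-2 replicate 1, the one library of that group above 1 TPM. The test of the difference between these 2 responses gave -1.60 (SE 0.90, adjusted *P* = 0.312). With the replicate number as a block, this difference had an SE of 0.59 and a limma adjusted *P* of 0.0993.

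*St8sia1* encodes GD3 synthase, which adds the second sialic acid of the ganglioside GD3, and is found at chr6:142770065-142912972, minus strand. It read 50.2, 27.7 and 20.6 TPM in TB IL-2, 139.6, 162 and 65.6 in TB IL-2nil, 4.02, 4.77 and 8.78 in TB+ IL-2 and 6.62, 5.74 and 15.5 in TB+ IL-2nil. All 6 resting libraries were above all 6 stimulated ones, and the resting groups did not overlap. Means were 32.8 ± 15.5, 122 ± 50.3, 5.86 ± 2.56 and 9.28 ± 5.40 TPM (SD, n = 3). The gene rose by 1.86 (SE 0.46, limma adjusted *P* = 0.00837) on withdrawal at rest. PMA/I then lowered it by 3.60 (SE 0.46, adjusted *P* = 6.00e-05) in cells without IL-2, the largest change of the 9 genes in that comparison at 12.2-fold, and by 2.27 (SE 0.46, adjusted *P* = 0.00321) in cells with it. Once stimulated, the groups with and without IL-2 overlapped, with a difference of 0.53 (SE 0.46, adjusted *P* = 0.444). The response to PMA/I with and without IL-2 differed by -1.34 (SE 0.65, adjusted *P* = 0.242). By the labels 0.94 (SE 1.16, adjusted *P* = 0.798) remained of the rise at rest, and without both libraries it was 2.26 (SE 0.43, adjusted *P* = 0.00572). The changes with PMA/I were -2.68 without IL-2 and -1.35 with it by the labels (adjusted *P* = 0.143 and 0.650), and -4.00 and -2.55 without both libraries (adjusted *P* = 1.25e-04 and 0.00293).

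*St8sia4* encodes one of the 2 polysialyltransferases, which build long chains of sialic acid on carriers such as NCAM and CCR7, and occupies chr1:97484261-97564171 (minus strand). Its levels were 50.9, 34.5 and 31.1 TPM in TB IL-2, 91.2, 74.5 and 64.6 in TB IL-2nil, 16.5, 12.03 and 9.76 in TB+ IL-2 and 23.7, 20.5 and 21.8 in TB+ IL-2nil. None of the 4 groups overlapped another, in an order from TB IL-2nil over TB IL-2 and TB+ IL-2nil down to TB+ IL-2. Replicate 1 was the highest of each group, as it was for the CD8 markers. Withdrawal made a difference of 0.98 (SE 0.23, limma adjusted *P* = 0.00645) at rest and 0.77 (SE 0.23, adjusted *P* = 0.0361) after PMA/I, both under 3-fold. With PMA/I the gene fell by 1.75 (SE 0.23, adjusted *P* = 7.62e-05) in cells without IL-2, a call that was lost with the trimmed mean of M values and with no filter on low values. In cells with IL-2 the difference of -1.53 (SE 0.23, adjusted *P* = 5.95e-04) came to 2.89-fold and was not called, but passed in 5 of 24 alternatives, by -1.60 to -1.72 (pseudocount 0.1, no scaling, and without TB IL-2 replicate 2, TB IL-2 replicate 3 or TB+ IL-2 replicate 1). By the labels the fall without IL-2 was -0.88 (SE 0.78, adjusted *P* = 0.434), and without both libraries -1.87 (SE 0.24, adjusted *P* = 3.01e-04).

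**Figure D2:**
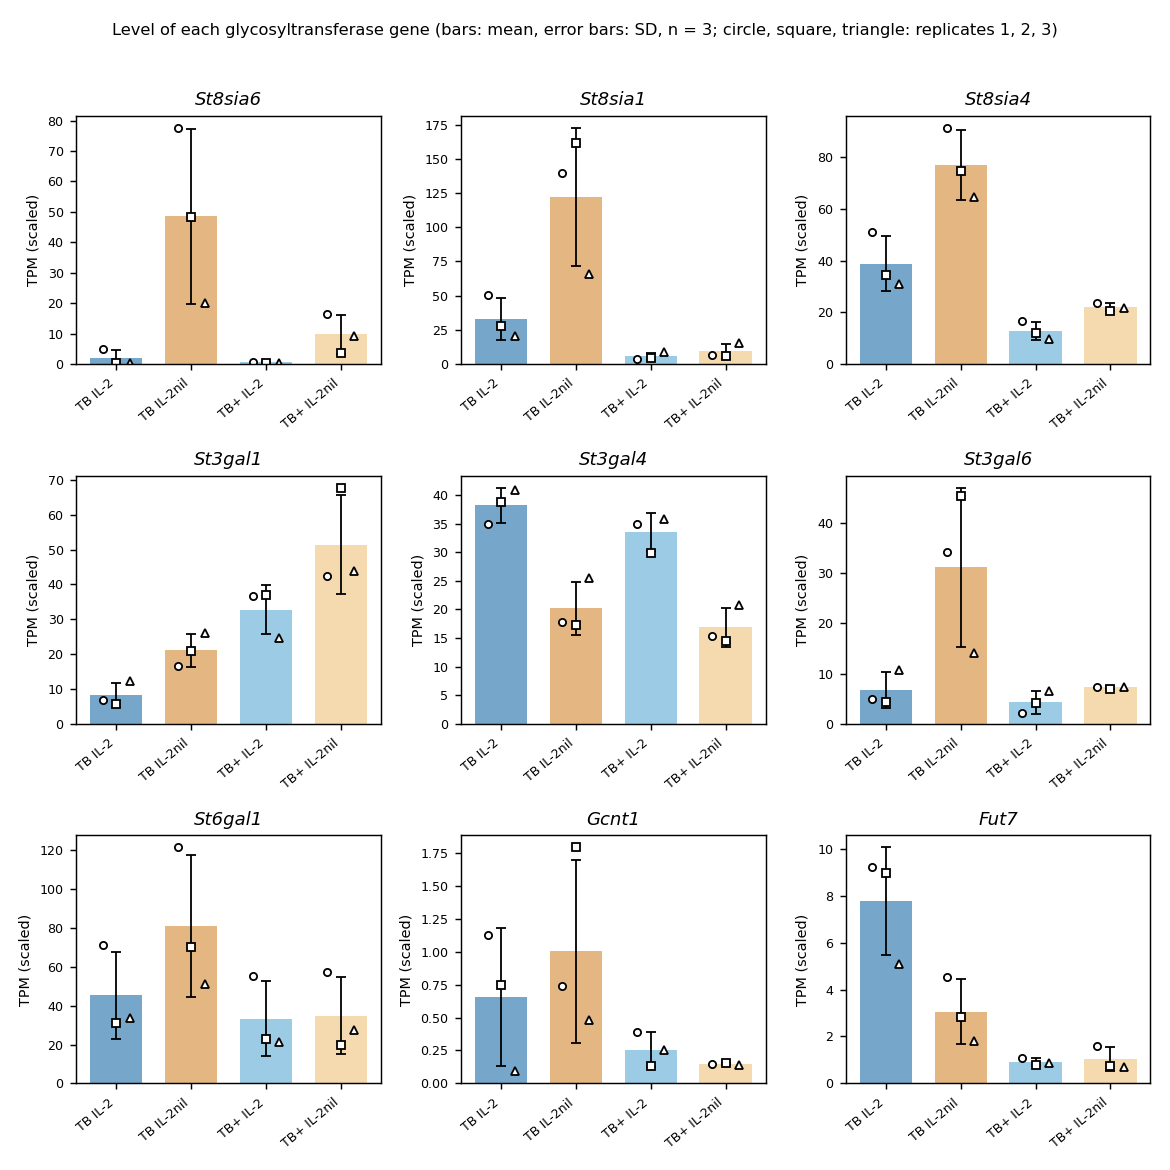
Level of each of the 9 genes in scaled TPM (linear axes that start at 0 and differ between panels) in the 4 groups, as mean with SD error bars (n = 3) and each library as a symbol by replicate number. *St8sia6*, *St8sia1*, *St8sia4* and *St3gal6* are highest in TB IL-2nil, *St3gal1* in TB+ IL-2nil and *Fut7* in TB IL-2.

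Levels were also added up over the 20 mouse sialyltransferase genes of the lists, by the bond that they make. The 6 alpha-2,8 genes together made up 29.9 to 41.0% of all sialyltransferase TPM in TB IL-2, 52.0 to 62.3% in TB IL-2nil, 10.4 to 12.7% in TB+ IL-2 and 13.3 to 23.7% in TB+ IL-2nil. *St8sia1*, *St8sia4* and *St8sia6* carried this sum, while the other 3 of the family were near 0. The summed level of the 6 alpha-2,3 genes was nearly flat in comparison, between 64.4 and 92.7 TPM over all 12 libraries, although its members moved in different directions. Genes for alpha-2,6 linkage to *N*-acetylgalactosamine took 2.66 to 12.5% at rest and 22.2 to 36.9% after PMA/I. As these are the same values as those of the single genes, the sums are a description and were not tested.

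**Figure D3:**
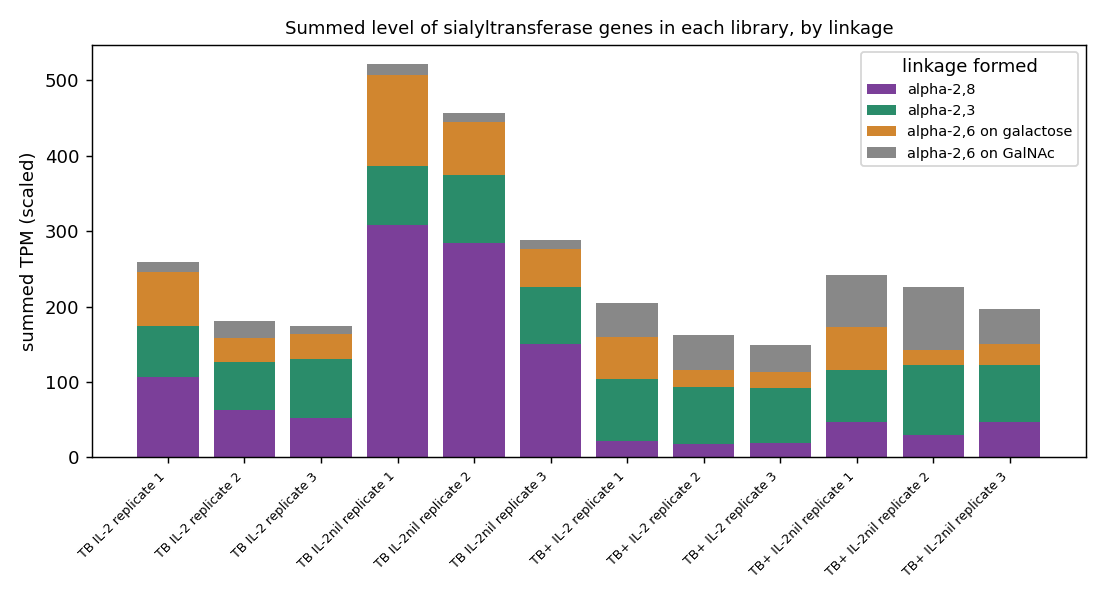
Summed TPM (scaled) of sialyltransferase genes in each of the 12 libraries, stacked by the linkage that they form. The alpha-2,8 part is tallest in the 3 TB IL-2nil libraries, at 150.2 to 308 TPM, and does not exceed 46.7 TPM in any stimulated library, where the alpha-2,6 part on *N*-acetylgalactosamine is at least 35.3 TPM.

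Among the alpha-2,3 enzymes, *St3gal6* acts mainly on galactose of type 2 chains and can contribute to sialyl Lewis x, and is found at chr16:58468238-58524356, minus strand. It read 4.97, 4.42 and 10.8 TPM in TB IL-2 and 34.2, 45.4 and 14.1 TPM in TB IL-2nil. The groups did not overlap, although replicate 3 of the 2 groups stood close together. After PMA/I the values were 2.05, 4.18 and 6.51 TPM with IL-2 and 7.40, 6.94 and 7.36 TPM without. Thus TB IL-2nil, at 31.2 ± 15.9 TPM, stood above the other 3 groups, whose means were 4.25 to 7.23 TPM. The rise on withdrawal at rest was 2.01 (SE 0.44, limma adjusted *P* = 0.00476), under 3-fold with a pseudocount of 5, and the fall with PMA/I after withdrawal was -1.82 (SE 0.44, adjusted *P* = 0.00404). The latter was no longer called without TB IL-2nil replicate 2 (-1.49), after quantile normalization (-1.44), with the trimmed mean of M values (-1.52) or with a pseudocount of 5 (-1.46). In stimulated cells the difference by IL-2 was 0.74 (SE 0.44, adjusted *P* = 0.255) without overlap of the groups, and PMA/I with IL-2 gave -0.56 (SE 0.44, adjusted *P* = 0.352). By the labels the difference on withdrawal at rest was 1.67 (SE 0.71, adjusted *P* = 0.397) and without both libraries 2.48 (SE 0.35, adjusted *P* = 0.00178). The fall with PMA/I after withdrawal was then -1.49 (adjusted *P* = 0.171) and -2.30 (adjusted *P* = 6.38e-04).

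*St3gal1* encodes the enzyme that caps the core 1 *O*-glycan with alpha-2,3 sialic acid, and occupies chr15:66934437-66945922 (minus strand). It was the one gene of the 9 that PMA/I raised. In TB IL-2 the libraries read 6.77, 5.81 and 12.2 TPM and in TB+ IL-2 36.8, 36.9 and 24.6 TPM, a rise of 1.90 (SE 0.29, limma adjusted *P* = 6.79e-04) that was also called by the labels, at 1.93 (SE 0.31, adjusted *P* = 0.0300), and without both libraries, at 2.09 (SE 0.31, adjusted *P* = 0.00163). With a pseudocount of 5 it was under 3-fold. Without IL-2 the gene read 16.5, 21.0 and 25.9 TPM at rest and 42.4, 67.8 and 43.9 TPM after PMA/I, for a difference of 1.23 (SE 0.29, adjusted *P* = 0.00357) under 3-fold. Withdrawal alone made a difference of 1.295 at rest (SE 0.29, adjusted *P* = 0.00542), likewise under 3-fold. The 2 responses to PMA/I differed by -0.67 (SE 0.41, adjusted *P* = 0.358). The group means were 8.28 ± 3.47 TPM in TB IL-2, 21.1 ± 4.73 in TB IL-2nil, 32.7 ± 7.08 in TB+ IL-2 and 51.4 ± 14.3 in TB+ IL-2nil (SD, n = 3), with an overlap only between TB IL-2nil and TB+ IL-2.

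*St3gal4* makes alpha-2,3 bonds on *N*-glycans and on selectin ligands and is found at chr9:34854164-34924395, minus strand. Its libraries separated by IL-2, at less than 3-fold, and no difference with PMA/I was resolved. With IL-2 the libraries read 34.9, 38.8 and 41.0 TPM at rest and 35.0, 29.8 and 35.9 TPM after stimulation. Without IL-2 they read 17.7, 17.3 and 25.4 TPM at rest and 15.3, 14.6 and 20.8 TPM after stimulation. All 6 libraries with IL-2 were above all 6 without it. The differences of -0.91 (SE 0.19, limma adjusted *P* = 0.00366) at rest and -0.96 (SE 0.19, adjusted *P* = 0.00546) after PMA/I came to 1.88-fold and 1.95-fold and were not called. Without both libraries they were -1.07 and -0.92 (adjusted *P* = 0.00475 and 0.0221), and by the labels -0.75 and -0.80 (adjusted *P* = 0.350 and 0.192). For PMA/I the differences were -0.18 with IL-2 (adjusted *P* = 0.482) and -0.24 without (adjusted *P* = 0.295), and their sign changed with other scalings.

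*St6gal1* encodes the main enzyme for alpha-2,6 sialic acid on *N*-glycans, which makes the ligand of CD22 on B cells, and occupies chr16:23224813-23360421 (plus strand). It read 71.3, 31.2 and 33.6 TPM in TB IL-2, 121, 70.1 and 51.2 in TB IL-2nil, 55.4, 22.9 and 21.3 in TB+ IL-2 and 57.1, 20.001 and 27.4 in TB+ IL-2nil. Each library of TB IL-2nil was above the TB IL-2 library of the same replicate number. Replicate 1 was the highest of each group, and each group overlapped each other group. Replicate 1 was also the highest of each group in the CD8 markers, and the B cell markers, given above, were highest in TB IL-2nil like this gene. On withdrawal at rest the difference was 0.83 (SE 0.49, limma adjusted *P* = 0.202) and with PMA/I after withdrawal -1.24 (SE 0.49, adjusted *P* = 0.0482), neither of them called. With the replicate number as a block the same differences had an SE of 0.17 and adjusted *P*-values of 0.00312 and 1.58e-04, still under 3-fold. With the block, PMA/I with IL-2 also passed the *P* threshold, at -0.47 (SE 0.17, adjusted *P* = 0.0426), where the unblocked value was 0.487. By the labels no difference of the gene had an adjusted *P* under 0.05, and without both libraries only the fall after withdrawal did, at -1.52 (SE 0.55, adjusted *P* = 0.0400).

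*Fut7* encodes the fucosyltransferase that completes sialyl Lewis x on leukocytes, and is found at chr2:25278787-25281894, plus strand. Its levels were 9.23, 8.95 and 5.11 TPM in TB IL-2, 4.54, 2.82 and 1.82 in TB IL-2nil, 1.08, 0.789 and 0.878 in TB+ IL-2 and 1.61, 0.748 and 0.717 in TB+ IL-2nil. Replicate 1 was the highest of each group, as it was for the CD8 markers. The gene was the highest in resting cells with IL-2 and, of the 9 genes, it and *St3gal4* were lower without IL-2 at rest with no overlap. PMA/I with IL-2 lowered it by 2.16 (SE 0.28, limma adjusted *P* = 2.40e-04), to a mean of 0.915 ± 0.149 TPM (SD, n = 3). Without both libraries this fall was -2.14 (SE 0.30, adjusted *P* = 0.00114), by the labels -1.96 (SE 0.40, adjusted *P* = 0.0633), and with a pseudocount of 5 it was under 3-fold. Withdrawal at rest gave -1.13 (SE 0.28, adjusted *P* = 0.00891) and PMA/I after withdrawal -0.98 (SE 0.28, adjusted *P* = 0.0106), both under 3-fold. The 2 PMA/I responses differed by 1.18 (SE 0.40, adjusted *P* = 0.112). With the replicate number as a block this difference had an SE of 0.26 and an adjusted *P* of 0.0248, and it was then the only interaction called among the 9 genes. By the labels its adjusted *P* was 0.914. Of the regulatory T cell markers, *Lrrc32* was also highest in TB IL-2 (47.1 ± 18.7 TPM, SD, n = 3), and it carried the sum of the 3 markers, 31.4 to 68.7 TPM there against 4.66 to 17.1 TPM in the other 9 libraries. *Foxp3* and *Ikzf2* had higher means in TB IL-2nil than in TB IL-2, at 1.05 against 0.958 TPM and 3.81 against 1.46 TPM. The part of these cells in the result was not tested.

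*Gcnt1* starts the core 2 branch of *O*-glycans and occupies chr19:17400631-17431157 (minus strand). It had the lowest mean of the 9 genes in every group, at 1.13, 0.744 and 0.0973 TPM in TB IL-2, 0.737, 1.79 and 0.478 in TB IL-2nil, 0.391, 0.130 and 0.250 in TB+ IL-2 and 0.147, 0.156 and 0.142 in TB+ IL-2nil. Only 2 of the 12 libraries were above 1 TPM. No comparison was called. PMA/I after withdrawal gave -0.75 (SE 0.27, limma adjusted *P* = 0.0308), the one difference of the gene with an adjusted *P* under 0.05. GCNT1 and ST3GAL1 can both act on the core 1 *O*-glycan, and their log2 ratio, (*Gcnt1* TPM + 1) over (*St3gal1* TPM + 1), was -2.48 ± 0.97 in TB IL-2, -3.50 ± 0.62 in TB IL-2nil and -4.73 ± 0.36 in TB+ IL-2 (SD, n = 3). With *Gcnt1* this low, the ratio mostly restates the level of *St3gal1* and is given as a description.

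Around the 9 genes, 118 other genes of sialic acid, fucose, *O*-glycan, *N*-glycan, sulfation, ganglioside and selectin biology were listed by role, and 82 of them were tested. On IL-2 withdrawal at rest 3 rose and 3 fell, where 2.73% and 4.69% of all genes did, so the share that rose or fell was near that of all genes. *Cmah*, which converts *N*-acetyl- to *N*-glycolylneuraminic acid, rose by 2.08 (SE 0.34, limma adjusted *P* = 9.32e-04) from 20.1 ± 8.30 to 84.0 ± 10.1 TPM (SD, n = 3). *Ccr7*, a lymph node chemokine receptor that can carry polysialic acid, rose by 1.70 and *Slc35b3*, a transporter of the sulfate donor, by 1.75. *Lgals1*, which encodes galectin-1, fell by 1.96 (SE 0.36, adjusted *P* = 0.00175), from 1223 ± 359 to 319 ± 115 TPM. *Tpst1*, one of the 2 tyrosine sulfotransferases that act on P-selectin ligands, and *B4galt4*, a galactosyltransferase, fell by 1.81 and 1.80. The calls of *Slc35b3*, *Tpst1* and *B4galt4* were lost with a pseudocount of 5, and that of *Ccr7* without TB IL-2 replicate 3 (1.49, adjusted *P* = 0.0516).

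In stimulated cells, 0 of the 82 rose on withdrawal and 3 fell, beside 0.41% and 3.21% of all genes. These were *Nans*, the sialic acid synthase (-1.82, adjusted *P* = 2.78e-04), *Gmds*, the first enzyme of GDP-fucose synthesis (-1.68, adjusted *P* = 3.68e-04), and *Lgals1* (-1.67, adjusted *P* = 0.00825). *Nans* read 40.5, 37.7 and 55.4 TPM in TB+ IL-2 and 9.13, 12.9 and 13.6 TPM in TB+ IL-2nil, and it was also lower without IL-2 at rest, by 2.65-fold, which is not a call. None of the 3 calls held in every alternative. Those of *Nans* and *Gmds* were lost with a pseudocount of 5 and with quantile normalization, and that of *Gmds* also without TB+ IL-2 replicate 1 (-1.50). The call of *Lgals1* was lost without both relabelled libraries (-1.45), without TB+ IL-2 replicate 3 (-1.45) and without TB+ IL-2nil replicate 1 (-1.44).

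PMA/I raised 5 of the 82 genes in cells with IL-2 and 5 in cells without, where 3.94% and 7.78% of all genes rose, *Chst2* among them both times. *Chst2*, which sulfates *N*-acetylglucosamine on selectin ligands, read 2.21 to 6.65 TPM in the 6 resting libraries and 69.8 to 141 TPM in the 6 stimulated ones, with differences of 4.41 and 4.19 (SE 0.25 each, limma adjusted *P* = 8.26e-07 and 6.80e-07). The others, each called both times, were *Cd24a*, a carrier of P-selectin ligands (4.73 and 4.37), *Cd44*, an adhesion receptor that can bind E-selectin (1.87 and 2.52), *St6galnac4*, which adds alpha-2,6 sialic acid to sialylated core 1 (1.67 and 2.73), and *B3gnt2*, which extends poly-*N*-acetyllactosamine chains (1.64 and 1.81). Of these, 3 lost a call in an alternative. The call of *St6galnac4* with IL-2 was lost with a pseudocount of 5 and without TB IL-2 replicate 1 (1.52) or 3 (1.46), and that of *Cd44* with IL-2 by quantile normalization. For *B3gnt2* both calls were lost by quantile normalization and with no scaling, and the one with IL-2 also with a pseudocount of 5 and without TB+ IL-2 replicate 1 (1.55). Falls numbered 2 with IL-2 and 12 without, beside 3.1% and 10.7% of all genes. *Selplg*, which encodes the P-selectin ligand PSGL-1, was at 213, 185 and 219 TPM in TB IL-2 and 55.2, 45.9 and 108 in TB+ IL-2, and at 315, 336 and 307 TPM in TB IL-2nil and 39.3, 42.8 and 91.7 in TB+ IL-2nil. It fell by 1.64 (SE 0.34, adjusted *P* = 0.00399) with IL-2 and by 2.55 (SE 0.34, adjusted *P* = 8.92e-05) without. The call with IL-2 was lost with a pseudocount of 5, with no filter on low values, with the trimmed mean of M values (-1.35) and without TB+ IL-2 replicate 1 (-1.53) or 2 (-1.39). *Spn*, the gene of the large sialoglycoprotein CD43, was lower after PMA/I at less than 3-fold in both (-0.97 and -0.86). *Ccr7* also fell in both (-3.28 and -3.86).

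For PMA/I, the list on supply, modification and removal of sialic acid held 10 genes tested. All 10 had negative differences in both comparisons (9 of 10 with IL-2 under the trimmed mean of M values), with medians of -0.90 with IL-2 and -1.39 without, against -0.22 and -0.38 over all genes, and 0 and 4 of them were called lower, beside 3.1% and 10.7% of all genes. The 4 were *Cmah* (-2.88), *Siae*, a sialic acid esterase (-2.13), *Gne*, the entry enzyme of sialic acid synthesis (-2.04), and *Neu3*, a ganglioside sialidase (-1.63). Of 24 alternatives *Neu3* was called in 17, and its call was lost with a pseudocount of 5, with no filter, with quantile normalization (-1.07), with the trimmed mean of M values (-1.37) and without TB IL-2nil replicate 1 (-1.54), TB IL-2nil replicate 2 (-1.54) or TB+ IL-2nil replicate 1 (-1.46). The calls of *Siae* and *Gne* were lost with a pseudocount of 5 alone. Of the *O*-glycan list, 4 of 19 fell with PMA/I after withdrawal, beside the same 10.7% of all genes, among them *Galnt10* (-2.88) and *Galnt7* (-1.75), which start *O*-glycans. The call of *Galnt7* was lost with a pseudocount of 5, with no filter, with quantile normalization and with the trimmed mean of M values. For *N*-glycan branching 0 of 7 genes were called in any comparison, and the best expressed were *Mgat2* and *Mgat1*. Of the 7 other sialyltransferases tested, 0 were called on withdrawal and 1, *St6galnac4*, for PMA/I. Among all genes, 7.42% were called on withdrawal at rest and 3.62% on withdrawal in stimulated cells. For PMA/I 7.04% were called with IL-2 and 18.5% after withdrawal. Of 5 ganglioside genes 0 were called, and *Ugcg*, which makes glucosylceramide, and *B4galnt1*, the GM2/GD2 synthase, read 87.6 ± 22.1 and 109 ± 16.4 TPM in TB IL-2 and 236 ± 52.9 and 216 ± 41.1 TPM in TB IL-2nil (SD, n = 3). For the 82 genes the medians were 0.34, 0.04, -0.40 and -0.72 in the order above. Grouping by the sample labels is left out of the lost calls and of the 24 alternatives above. By those labels 0 of the 82 were called in any comparison. Without both relabelled libraries 4 rose and 4 fell on withdrawal at rest, 0 and 2 on withdrawal in stimulated cells, 5 and 2 with PMA/I in IL-2, and 5 and 14 with PMA/I after withdrawal.

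**Figure D4:**
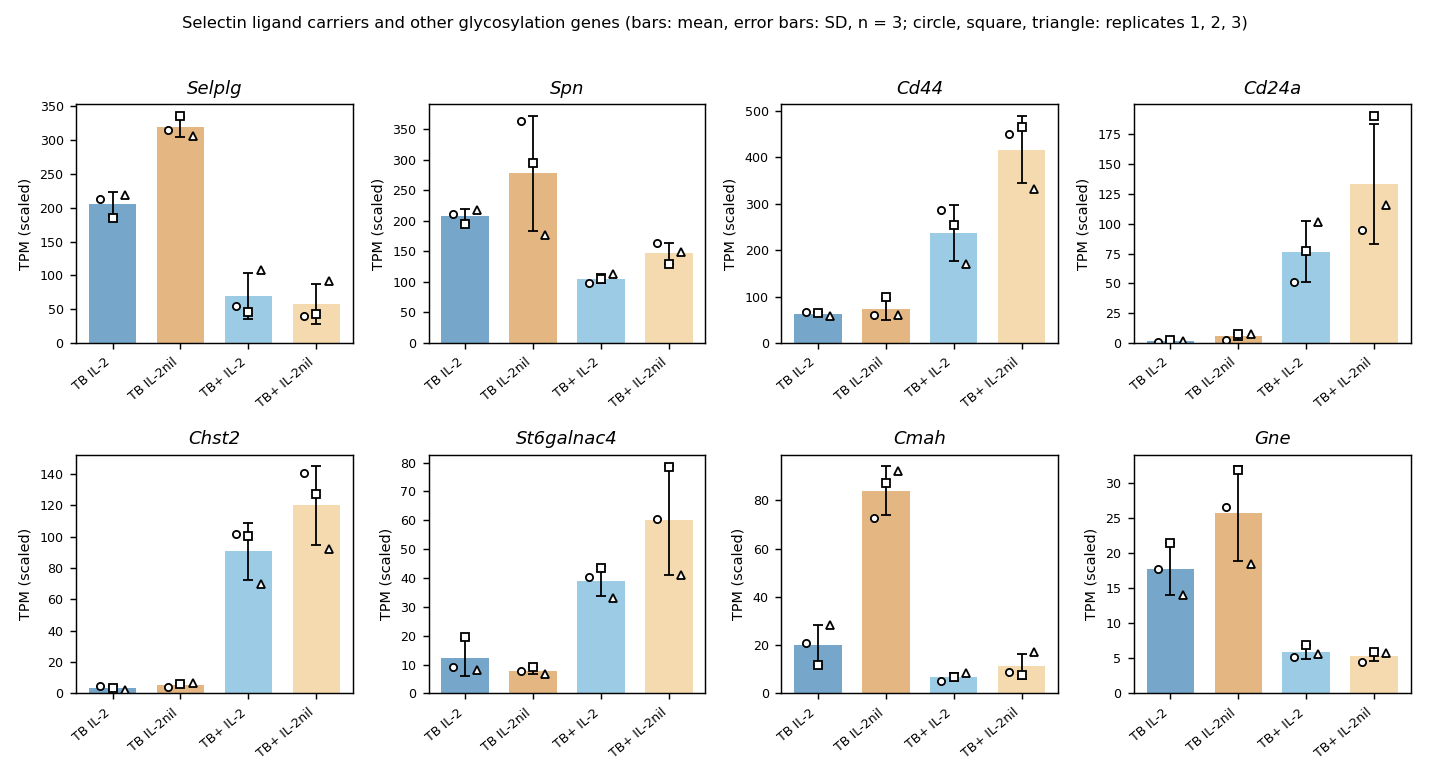
Scaled TPM of the selectin ligand carriers *Selplg*, *Spn*, *Cd44* and *Cd24a*, and of *Chst2*, *St6galnac4*, *Cmah* and *Gne* in the 4 groups, as mean with SD (n = 3) and each library as a symbol by replicate number, on linear axes from 0. *Cmah* is highest in TB IL-2nil, and *Chst2*, *St6galnac4*, *Cd44* and *Cd24a* are high in both stimulated groups.

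Among themselves the 9 genes did not follow a single pattern over the 12 libraries. Pearson's *r* in log2(TPM + 1), a description over libraries that share groups, was 0.93 between *St8sia1* and *St8sia4*, 0.81 between *St8sia1* and *St3gal6* and 0.80 between *St8sia6* and *St3gal6*. It was -0.94 between *St3gal1* and *Fut7* and -0.75 between *St8sia6* and *St3gal4*. Among 8791 other genes with a mean of at least 5 TPM, the most like each member by rank, with 1 given for *St6gal1* and 2 for each of the others, were *Smurf1* and *Arid4b* for *St8sia6* (*r* = 0.997 and 0.991), *Agap2* and *Tmem59* for *St8sia1* (0.991 and 0.989), *Irgq* and *Mau2* for *St8sia4* (0.983 and 0.982) and *Gramd1b* and *Stk26* for *St3gal1* (0.969 and 0.966). They were *Tdp1* and *Ube2m* for *St3gal4* (0.976 and 0.974), *Arl6ip5* and *Glul* for *St3gal6* (0.940 and 0.940), *Tspan13* for *St6gal1* (0.951), *Eif5a2* and *Med10* for *Gcnt1* (0.904 and 0.898) and *2310011J03Rik* and *Dcun1d2* for *Fut7* (0.939 and 0.934).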

How the data were processed

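RNA-Seq of 12 libraries was analyzed. Reads were trimmed with Trimmomatic 0.32, aligned to mm9 with HISAT2 2.1.0 and quantified with StringTie 1.3.3, per the labels and the submitters' processing notes. The authors deposited FPKM values, 1 table per library, with sums of 193815 to 420487. The methods speak of TPM, which the tests had been planned for, so FPKM were rescaled to sum to 1e+06 TPM per library.

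A gene entered the tests where any library had over 1 TPM of it, and libraries were scaled to a common 75th percentile. Differences in log2(TPM + 1) were fitted with limma 3.58.1 (R 4.3.3) to 4 group means without a trend or block (8 residual degrees of freedom), with Benjamini-Hochberg adjustment. A call needed over 3-fold and an adjusted *P* under 0.05, and a difference between PMA/I responses the adjusted *P* alone. The fit and the calls for withdrawal at rest were tested on simulated data, without scaling, filter or pairing. The other steps and comparisons were not tested in this way. A planned exact permutation test of the *Gcnt1* to *St3gal1* ratio, which cannot go below *P* = 0.1 with 3 against 3 libraries, is not used. Levels and counts used scipy 1.17.1, pandas 2.3.3 and numpy 2.4.6 under Python 3.11.15, and plots matplotlib 3.10.9.

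The 9 genes and the lists were chosen with earlier results of these data known. Beside the 9, up to 4 called genes of each list and comparison with the largest differences were named, or up to 2 genes with the highest level where none was called, 3 selectin ligand carriers (*Selplg*, *Cd44* and *Spn*), *Il2*, markers, and for each member the 2 genes with the highest correlation. *Ighm* was not analysed here, and a few results are not reported here. Columns of the authors' list with fold changes were not used, and its columns of values per library served only for the placement. For it the libraries were quantile-normalized as FPKM or as TPM, over all genes or only those over the filter. The version that met the list best was used. That placement matched all 12 columns, 10 to the library of the same label and 2 to one of another label, and the next best library met at most 1.59% of values.

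Replicate numbers come from the labels. With the placement, deviations from the group means correlated between same-numbered libraries in all 18 pairs (*r* = 0.101 to 0.531). Between libraries of different number, *r* was -0.416 to 0.171 in 36 pairs and over 0.1 in 2 of them, so the ranges overlapped slightly. The numbers were therefore taken to pair the libraries. The main fit ignored this pairing, so its SE and *P*-values are those of unpaired groups. With a block, 6322 of all genes had a limma adjusted *P* under 0.05 for withdrawal at rest, against 4929 without. The fit with a replicate block was an alternative. The others were grouping by the labels, leaving out both relabelled libraries or each library in turn, pseudocounts of 0.1 and 5, other filters and scalings, short non-coding RNAs left out, a trended and robust fit, and a fit to the groups of 1 comparison. StringTie may split reads between overlapping genes, and strand was not given in the sources used here.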

Additional observations from a re-analysis of the deposited data

Results flagged for a closer look

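In 4 of the 82 other glycosylation genes tested the response to PMA/I differed between cells with and without IL-2 (limma interaction term with Benjamini-Hochberg adjustment). It did so for 4.23% of all genes, so the share was near that of all genes. *Galnt10* was lower after PMA/I by more in cells without IL-2, with a difference of -1.56 between the log2 responses (SE 0.37, adjusted *P* = 0.0436) and mean levels of 27.5 and 10.5 TPM with IL-2 at rest and after PMA/I, and of 54.4 and 6.93 TPM without. *Galnt7* differed by -0.93 (SE 0.21, adjusted *P* = 0.0374), with 27.5 and 15.2 TPM with IL-2 and 35.2 and 9.63 TPM without. *Siae* differed by -1.17 (SE 0.28, adjusted *P* = 0.0456), with 4.92 and 2.05 TPM with IL-2 and 8.86 and 1.25 TPM without. *Tpst1* differed by 1.43 (SE 0.25, adjusted *P* = 0.0198), with 11.2 and 6.77 TPM with IL-2 and 2.49 and 5.03 TPM without, so that it was lower after PMA/I in the former and higher in the latter. Of 23 alternatives other than the labels, *Galnt10* and *Galnt7* were called in 10 each, *Siae* in 8 and *Tpst1* in 16, and leaving out most single libraries ended the calls of *Galnt10*, *Galnt7* and *Siae* (highest adjusted *P* with 1 library left out 0.109, 0.0966 and 0.118, and 0.0571 for *Tpst1*). None of the 4 was called by the labels or without both relabelled libraries, where the adjustment over all genes left 0 and 4 genes in all.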

How the results depend on the processing

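Of the 1116 alternative values for the differences of the 9 genes, 1063 kept their direction and their side of the thresholds, 22 lost a call, 9 gained one and 22 changed sign. The 9 gained were *St8sia4* for PMA/I with IL-2 in 5 alternatives, *St6gal1* for PMA/I after withdrawal in 2 (no scaling, -1.78, and without TB+ IL-2nil replicate 1, -1.66), *Gcnt1* there in 1 (pseudocount 0.1, -1.97) and the interaction of *Fut7* in 1. For the other named genes, of 1096 alternative values 955 kept direction and side, 138 lost a call and 3 changed sign. By the sample labels, calls among the 9 were 0, 0, 1 and 0 (withdrawal at rest, withdrawal in stimulated cells, PMA/I with IL-2, PMA/I after withdrawal), those among the 82 other glycosylation genes 0 in each comparison, and those among all genes 12, 15, 44 and 255, with 0 interactions by adjusted *P*. A pseudocount of 5 left 0 of the 9 for withdrawal in stimulated cells and 1 for PMA/I with IL-2, and 3, 1, 4 and 10 of the 82, 8 interactions among these, and 484, 210, 439 and 1212 of all genes with 842 interactions. A pseudocount of 0.1 gave 14 of the 82 for PMA/I with IL-2, 26 for PMA/I after withdrawal and 2 interactions, and 691, 1470 and 3472 of all genes from the second comparison on, with 241 interactions. The trimmed mean of M values left 2 of the 9 for PMA/I after withdrawal, and quantile normalization 1 of the 82 for withdrawal in stimulated cells. Without scaling, 35 of the 82 were called for PMA/I after withdrawal, with 0 interactions and 1 among all genes, and without both relabelled libraries 0 and 4 interactions. The replicate block, for numbers that pair the libraries, gave 1 interaction among the 9 (*Fut7*), 14 among the 82 and 1478 among all genes, and changed no other call of the 9. Leaving out 1 library at a time gave 0 to 1 calls among the 9 for withdrawal in stimulated cells (0 without TB+ IL-2 replicate 3 or TB+ IL-2nil replicate 1), 0 to 13 interactions among the 82 and 84 to 1302 among all genes (1302 and 13 without TB+ IL-2nil replicate 3, 84 and 0 without TB IL-2nil replicate 2). Signs changed as follows, all in differences that were not called. By the labels, *St8sia6* for PMA/I with IL-2 was 0.72, and for withdrawal in stimulated cells *St8sia1* was -0.40, *St8sia4* -0.10, *St6gal1* -0.34 and *Fut7* -0.14. *St3gal4* was 0.10 for PMA/I with IL-2 and 0.068 after withdrawal with the trimmed mean, 0.048 after withdrawal with quantile normalization, and its interaction was 0.23 with quantile normalization, 0.16 without both libraries and -0.21 to 0.11 with 1 library left out. *St6gal1* for withdrawal in stimulated cells was -0.31 without scaling, -0.17 without both libraries and -0.35 to 0.50 with 1 left out. *Fut7* there was -0.14 without scaling and -0.15 to 0.16 with 1 left out, and *Selplg* 0.088 without both libraries and -0.65 to 0.091 with 1 left out (positive without TB+ IL-2 replicate 3). *St8sia6* for PMA/I with IL-2 was -0.96 to 0.064 with 1 left out (positive without TB IL-2 replicate 1), and *Cd44* for withdrawal at rest -0.062 to 0.29 (negative without TB IL-2nil replicate 2). The causes were not tested. With 3 libraries per group and read counts unknown, small differences of genes with few TPM, such as *Gcnt1*, could not be resolved.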
